A study of Bos taurus with 10 samples.

Results

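The genes described here encode enzymes that detoxify aldehydes, foreign compounds and oxidants, together with the proteins that switch those enzymes on. They were taken from the deposited expression table by symbol: every aldehyde dehydrogenase (Aldh), flavin-containing monooxygenase (Fmo), soluble glutathione S-transferase (Gst) and microsomal glutathione S-transferase (Mgst), and 10 single genes (Nqo1, Ephx1, Cyp1a1, Cyp1b1, Ahr, Nfe2l2, Keap1, Gclc, Gclm and Hmox1). This gave 61 of the 21130 genes in the table. The series set out to compare muscle mRNA of cattle aged 24 months that carry MSTN+/-, a heterozygous state of the gene for the muscle growth inhibitor myostatin, with that of wild-type cattle of the same age. It has 7 libraries labelled MSTN+/- and 3 labelled wild type (WT1, WT2 and WT3 below), all from frozen muscle per the labels. The labels do not say how the MSTN allele was made, whether the libraries come from separate animals, or of which sex, so the spread behind each p-value may be technical.

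Aldehyde dehydrogenases oxidise reactive aldehydes to acids, and members of the ALDH1A branch make retinoic acid from retinal. Flavin-containing monooxygenases oxidise nitrogen and sulfur atoms of foreign compounds, and glutathione S-transferases couple electrophiles to glutathione, the main small thiol of the cell. Many of these genes are switched on by NRF2, the product of Nfe2l2, which KEAP1 holds back until it is modified by oxidants or electrophiles, and some by the aryl hydrocarbon receptor AHR, which binds planar aromatic ligands.

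The table did not match its labels. It describes 19415 rows as genes of Mus musculus, among them 54 of the 61 genes reported here. The remaining 7 named Mus musculus in the protein match beside them. None (0) of the 61 gene identifiers and 0 of their 76 transcript accessions were in the cattle RefSeq annotation, although 54 symbols also exist as cattle symbols or synonyms. Of 10 defining transcripts of skeletal muscle fibres, 3 stayed below 1 FPKM (fragments per kilobase of transcript, scaled to the number of mapped fragments) in all 10 libraries, and Ckm, the muscle creatine kinase gene, reached at most 1.07 FPKM. The 10 together summed to 23.6 to 53.2 FPKM in the MSTN+/- samples and to 38.5, 164.8 and 132.8 FPKM in WT1, WT2 and WT3. Most of the WT2 and WT3 sums came from Mylpf alone, at 154.59 and 125.19 FPKM, beside 6.24 to 26.65 FPKM in the MSTN+/- samples. Myh1 and Myh2 went the other way, with Myh2 at 5.73 to 15.29 FPKM in the MSTN+/- samples and at most 0.14 FPKM in the wild-type ones. The wild-type samples were also unlike one another. The summed level of 8 fibroblast markers was 5897 FPKM in WT1, 364 and 251 FPKM in WT2 and WT3, and 2730 to 5716 FPKM in the MSTN+/- samples. For 8 markers of pluripotent stem cells the sums were 2.20, 2527 and 2879 FPKM in WT1, WT2 and WT3, and 903 to 1529 FPKM in the MSTN+/- samples. Most of each MSTN+/- sum was Pou5f1 and Sox2. Pou5f1, at 633 to 847.89 FPKM, exceeded WT2 and WT3 (345.63 and 533.37 FPKM). Sox2, at 212.01 to 356.93 FPKM, was near or above them (223.69 and 202.41 FPKM). The other 6 lay far below WT2 and WT3, such as Nanog, at 5.95 to 55.04 FPKM against 233.83 and 176.94 FPKM. Liver is the tissue richest in these enzymes, and 5 of 6 hepatocyte markers stayed below 1 FPKM in every library; the exception was Cyp2e1, at up to 9.41 FPKM. All 4 adipocyte markers also stayed below 1 FPKM. In the comparisons below, the labels name columns of the table, and differences that go with the genotype label and with cell makeup cannot be told apart. In bulk RNA, fewer cells of a type and less RNA per cell cannot be told apart either. Because WT1 stood apart, differences are also given without that library or against it alone where these move them. The value against WT1 alone assumes that this library varies as the 7 do. All of them use the same MSTN+/- samples.

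More of the detoxification genes were higher than lower in the MSTN+/- samples. Of the 61, 54 reached 1 FPKM in at least 3 libraries and were tested, with limma on log2(FPKM + 1). At an adjusted p under 0.05, 32 were higher, 5 were lower and 17 did not pass. Over all genes tested, 31.8% were called higher and 12.8% lower, against 59.3% and 9.26% of the detoxification genes tested. The median difference of those 54 was 0.81 on the log2 scale, and that of all genes was 0.17. With median-of-ratios scaling the median of all genes was -0.00, the higher share of all calls was 50.3% in place of 71.3%, and 29 of these genes were higher and 7 lower. Quantile normalization gave a higher share of 47.0%, with 26 higher and 7 lower. For 32 of the 54 the lowest of the 7 MSTN+/- values exceeded the highest of the 3 wild-type values, or 59.3% beside 25.2% of all genes, and for 2 they lay below, beside 6.86% of all genes. The low-value filter bears on these counts. Of the 54, 11 stayed below 1 FPKM in all 3 wild-type samples and passed only through the MSTN+/- samples (Aldh1a3, Aldh1a7, Aldh3a1, Fmo1, Fmo2, Fmo6, Gsta1, Gsta3, Gstm7, Gsto2 and Mgst2), and 10 of them were called higher. In the other 43, 22 were higher and 5 lower, and in the corresponding 13090 of all genes 28.2% were higher and 13.8% lower. The 7 genes not tested, among them Cyp1a1, Aldh8a1, Fmo4, Fmo5, Gsta2 and Gstt4, stayed at or below 1.02 FPKM in every library.

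**Figure D1:**
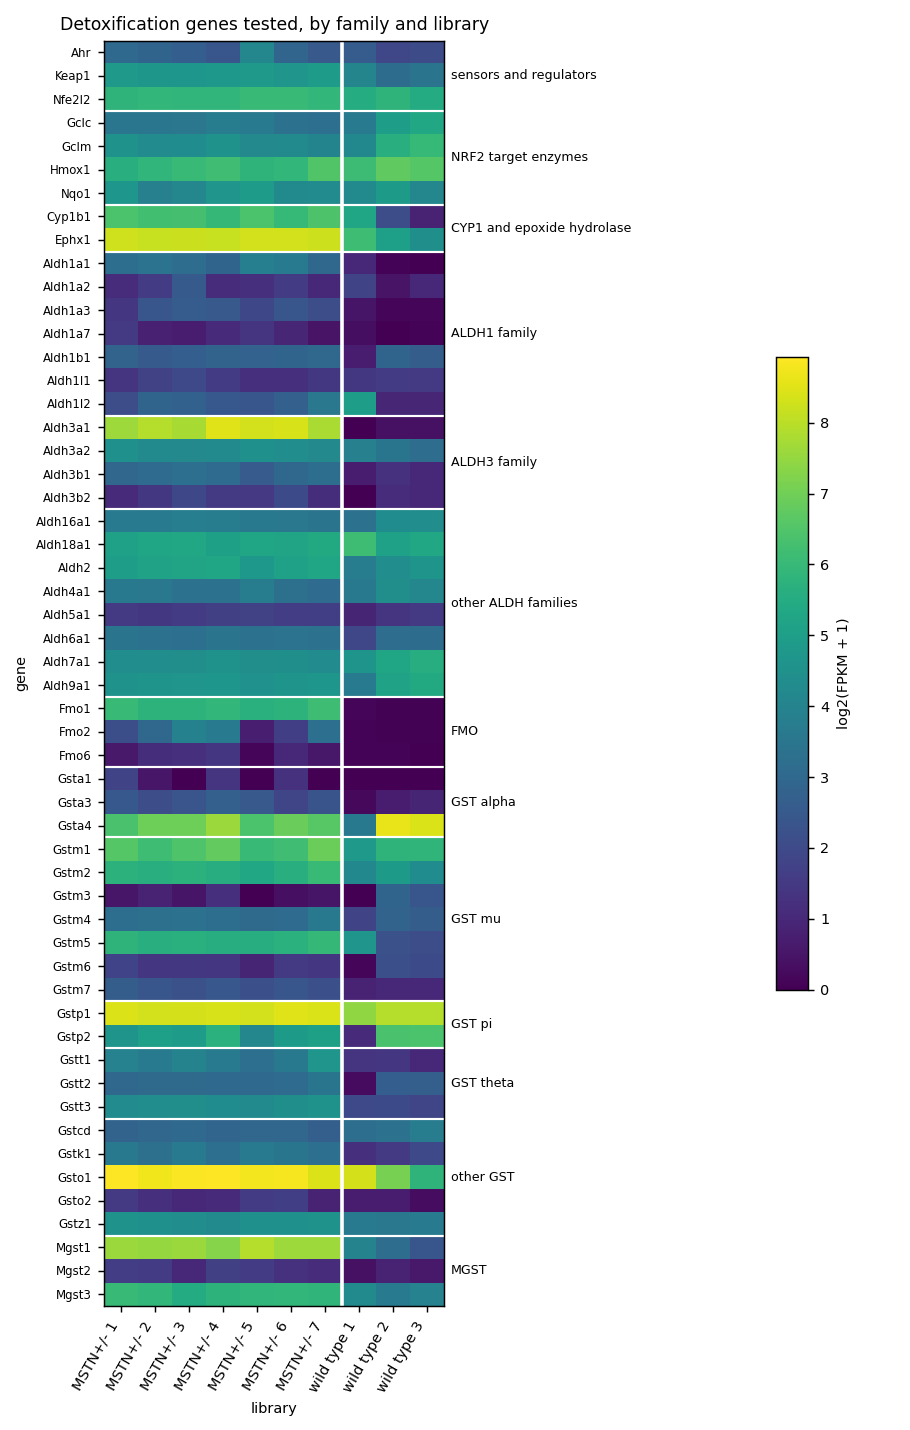
Level of each of the 54 detoxification genes tested, as log2(FPKM + 1) in colour, with genes in rows grouped by family and the 10 libraries in columns. Aldh3a1, Fmo1, Mgst1 and Ephx1 are bright in the 7 MSTN+/- columns and darker in all 3 wild-type columns, while Gsta4 is brightest in WT2 and WT3 and dark in WT1.

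The sensors that govern these enzymes were expressed in every library. Nfe2l2 (gene 18024), which encodes the transcription factor NRF2, had a lowest, median and highest level of 54.69, 59.14 and 66.03 FPKM in the MSTN+/- samples, and 44.72, 54.36 and 43.74 FPKM in WT1, WT2 and WT3. The groups did not overlap, but WT2 came close to the lowest MSTN+/- sample. The log2 difference of 0.33 ± 0.10 (SE, n = 7 and 3, limma adjusted p = 0.0232) was small, and the call was lost with median-of-ratios scaling (0.12) and without WT3 (0.28). Keap1 (gene 50868), the inhibitor of NRF2, was at 24.35 to 28.89 FPKM, with a median of 26.27 FPKM, in the MSTN+/- samples, against 15.82, 7.96 and 9.84 FPKM in WT1, WT2 and WT3. It rose by 1.2 ± 0.17 on the log2 scale (limma adjusted p = 3.38e-04), with every MSTN+/- sample above every wild-type one, and by 0.69 against WT1 alone. The ratio of Nfe2l2 to Keap1 FPKM was 2.01 to 2.71 in the MSTN+/- samples and 2.83, 6.83 and 4.45 in WT1, WT2 and WT3. Ahr (gene 11622), the gene of the aryl hydrocarbon receptor, ranged from 4.24 to 16.59 FPKM, with a median of 6.30 FPKM, in the MSTN+/- samples and was at 5.10, 2.69 and 3.19 FPKM in the wild-type ones. The groups overlapped through WT1, and the difference of 0.75 ± 0.34 did not pass (limma adjusted p = 0.0957). It passed only when WT1 was left out, among the alternatives run (0.96).

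Of Gclc, Gclm, Hmox1 and Nqo1, grouped here as NRF2 target enzymes, none (0) was higher in the MSTN+/- samples and 2 were lower. Other genes of the set that NRF2 can switch on are counted in their enzyme families. These 4 therefore do not stand for all NRF2 targets of the set. Gclc and Gclm encode the catalytic and the modifier subunit of glutamate-cysteine ligase, the first step of glutathione synthesis. Gclc (gene 14629) had 8.58, 10.46 and 12.62 FPKM as lowest, median and highest MSTN+/- values, and 11.49, 30.85 and 39.78 FPKM in WT1, WT2 and WT3. Gclm (gene 14630) had 15.36, 18.96 and 23.11 FPKM in the MSTN+/- samples, and 16.92, 48.95 and 61.74 FPKM in the wild-type ones. For both subunits WT1 lay inside the MSTN+/- range and WT2 and WT3 lay well above it. The log2 differences were -1.14 ± 0.30 for Gclc (SE, limma adjusted p = 0.0120) and -0.93 ± 0.32 for Gclm (limma adjusted p = 0.0386). Without WT1 they were -1.65 and -1.47. Both calls were lost without WT2 (-0.97 and -0.73), without WT3 (-0.80 and -0.57) and against WT1 alone (-0.12 and 0.17), and that of Gclm also without any 1 of MSTN+/- replicates 1, 2, 3, 5, 6 and 7 (-0.97 to -0.88). The subunits kept similar proportions, with a ratio of Gclm to Gclc FPKM of 1.46 to 2.18 in the MSTN+/- samples and 1.47, 1.59 and 1.55 in the wild-type ones.

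Hmox1 (gene 15368), which encodes the inducible heme oxygenase, was at 49.17 to 89.33 FPKM, with a median of 58.56 FPKM, in the MSTN+/- samples, against 67.78, 107.35 and 95.27 FPKM in WT1, WT2 and WT3. MSTN+/- replicates 4 and 7, at 72.05 and 89.33 FPKM, exceeded WT1, and the difference of -0.49 ± 0.19 (SE) did not pass (limma adjusted p = 0.0612). Leaving out MSTN+/- replicate 7 (-0.58) or WT1 (-0.68), median-of-ratios scaling (-0.71), TPM rescaling (-0.56) and library weights (-0.67) each brought it past the threshold. Nqo1 (gene 18104), the quinone reductase that is often used as a readout of NRF2, had 13.93, 19.02 and 29.31 FPKM as lowest, median and highest MSTN+/- values and 18.25, 28.09 and 16.47 FPKM in the wild-type samples. The groups overlapped almost entirely, with a difference of -0.01 ± 0.24 (limma adjusted p = 0.968).

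**Figure D2:**
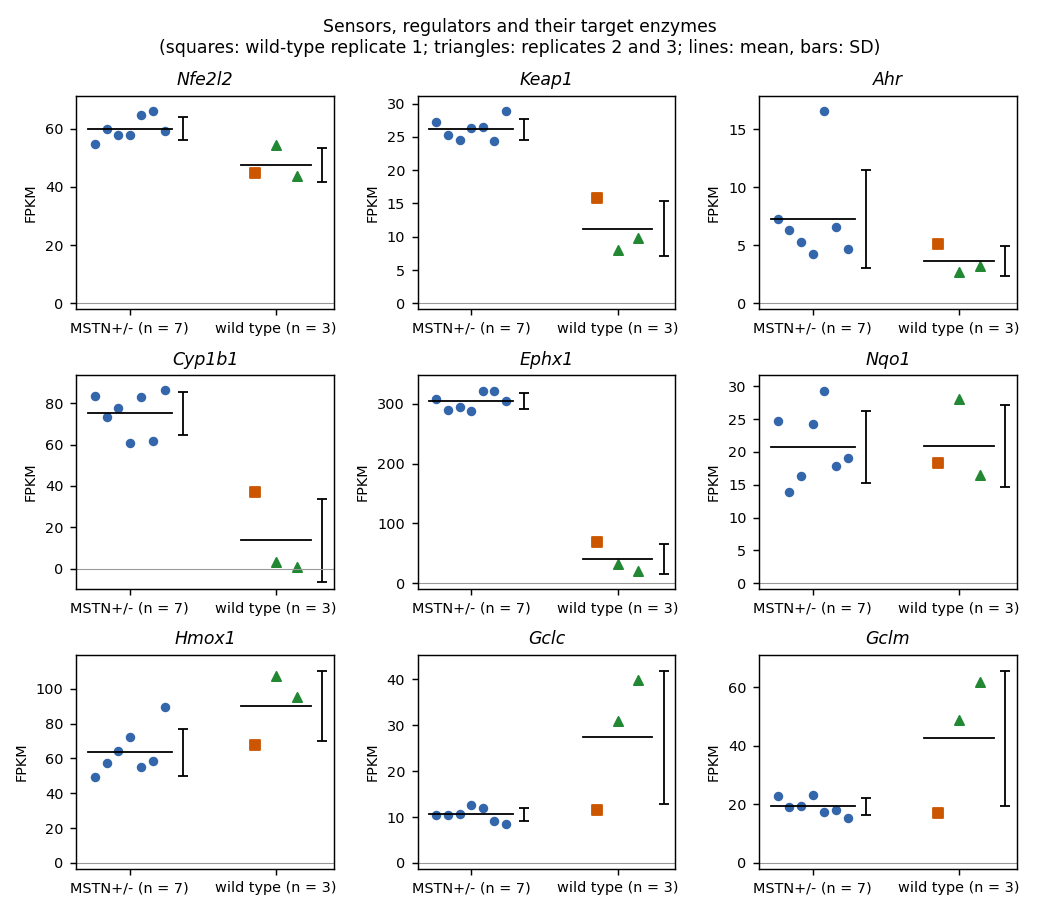
FPKM of 3 sensors and 6 enzymes in each library, on linear axes that include 0, with the mean as a line and the SD as a bar for the 7 MSTN+/- and the 3 wild-type samples. Keap1, Cyp1b1 and Ephx1 are higher in all 7 MSTN+/- samples than in any wild-type sample, while for Gclc and Gclm WT1 (square) sits with the MSTN+/- samples and WT2 and WT3 (triangles) sit above.

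Among the oxidation enzymes of the cytochrome P450 1 family, Cyp1b1 was expressed and Cyp1a1 was not. Cyp1a1 (gene 13076), the best known target of AHR, was listed at 0.04 FPKM in MSTN+/- replicate 5 and at 0 in the other 9 libraries. Cyp1b1 (gene 13078), which oxidises steroids and aromatic hydrocarbons, had 60.71, 77.54 and 86.43 FPKM as lowest, median and highest MSTN+/- values, and 36.87, 3.29 and 0.83 FPKM in WT1, WT2 and WT3. All 7 values lay above all 3, by 3.50 ± 0.70 on the log2 scale (SE, limma adjusted p = 0.00296), but the size of the difference was set by the wild-type sample: it was 0.996 ± 0.19 against WT1 alone and 4.75 ± 0.26 without it. Ephx1 (gene 13849) encodes microsomal epoxide hydrolase, which opens the epoxides that P450 enzymes form. It was nearly constant in the MSTN+/- samples, at 288.6 to 321.54 FPKM with a median of 304.97 FPKM, and stood at 69.47, 32.08 and 20.69 FPKM in the wild-type samples. It rose by 3.04 ± 0.27 (limma adjusted p = 2.01e-05). For both genes WT1 was the highest of the wild-type samples, as it was for 7 of the 8 fibroblast markers, Dcn being the exception. Their part in these differences was not tested.

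The ALDH3 enzymes, which oxidise fatty and aromatic aldehydes, were higher in the MSTN+/- samples for 4 of 4 genes, of which Aldh3a1 had passed the filter only through those samples. Aldh3a1 (gene 11670), known as a crystallin-like enzyme of the mouse cornea and as an AHR target in liver cells, had 194.87, 242.07 and 360.66 FPKM as lowest, median and highest MSTN+/- values. It was listed at 0 in WT1 and at 0.32 and 0.31 FPKM in WT2 and WT3. The difference of 7.78 ± 0.21 on the log2(FPKM + 1) scale (SE, limma adjusted p = 7.95e-09) was the widest of the 54 genes tested here. Within the MSTN+/- samples its values fell on both sides of a gap, with MSTN+/- replicates 4, 5 and 6 at 360.66, 318.15 and 329.91 FPKM and the other 4 at 194.87 to 242.07 FPKM. Aldh3b1 (gene 67689) followed at 4.93 to 8.62 FPKM, with a median of 7.63 FPKM, against 0.63, 1.40 and 1.02 FPKM, a difference of 2.04 ± 0.17 (limma adjusted p = 1.41e-05). Aldh3a2 (gene 11671), the fatty aldehyde dehydrogenase of the endoplasmic reticulum, had 17.53 to 21.58 FPKM, with a median of 18.06 FPKM, against 13.63, 10.15 and 8.09 FPKM. It rose by 0.82 ± 0.15 (limma adjusted p = 0.00159), and by 0.46 against WT1 alone. Aldh3b2, at 1.12 to 3.01 FPKM against 0, 1.22 and 0.99 FPKM, overlapped between groups (0.80 ± 0.28, limma adjusted p = 0.0406). That call was lost under 12 of the alternatives, among them leaving out MSTN+/- replicates 2 to 6 one at a time (0.72 to 0.81) and WT1 (0.45) or WT3 (0.94). It was 1.88 with a pseudocount of 0.1 and 1.52 against WT1 alone, and it was not tested under a minimum mean of 5 FPKM.

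Of the 7 genes of the ALDH1 family, 3 were higher, all with ALDH1A names, and 4 did not pass. Of the 3, Aldh1a3 and Aldh1a7 had passed the filter only through the MSTN+/- samples. Aldh1a1 (gene 11668), a cytosolic retinal dehydrogenase, had 6.26, 8.42 and 13.40 FPKM as lowest, median and highest MSTN+/- values and 1, 0.05 and 0 FPKM in WT1, WT2 and WT3, a difference of 2.96 ± 0.27 (SE, limma adjusted p = 2.10e-05). Aldh1a3 (gene 56847), a retinal dehydrogenase of eye and nasal development, had 1.64, 4.23 and 4.99 FPKM against 0.43, 0.12 and 0.12 FPKM, a difference of 1.90 ± 0.25 (limma adjusted p = 2.25e-04). At these levels the pseudocount of 1 compresses the scale, and with a pseudocount of 0.1 the differences were 5.15 and 3.61. Aldh1a7 (gene 26358), a rodent copy close in sequence to Aldh1a1, was at 0.40 to 1.85 FPKM against 0.27, 0 and 0.05 FPKM (0.86 ± 0.23, limma adjusted p = 0.0125). Reads may be split between these copies. Its call was lost without WT2 (0.79) or WT3 (0.82), against WT1 alone (0.65), with quantile normalization (0.60) and with library weights (0.91). It was 1.36 with TPM rescaling and 2.57 with a pseudocount of 0.1, and it was not tested without MSTN+/- replicate 1, 4 or 5 or under a minimum mean of 5 FPKM.

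The other ALDH1 genes differed more among the wild-type samples than between the groups. Aldh1a2, the retinal dehydrogenase of the early embryo, was at 1.01 to 4.74 FPKM against 2.52, 0.40 and 1.01 FPKM, and Aldh1l1, the cytosolic 10-formyltetrahydrofolate dehydrogenase, at 1.3 to 2.94 FPKM against 1.74, 2 and 1.85 FPKM. Neither passed, except Aldh1l1 as lower with quantile normalization (-0.48). Aldh1b1 (gene 72535), a mitochondrial enzyme, had 4.79, 6.18 and 7.18 FPKM as lowest, median and highest MSTN+/- values. WT2 and WT3, at 6.31 and 5.23 FPKM, lay inside that range, while WT1 stood at 0.64 FPKM. The difference was 0.73 ± 0.38 (limma adjusted p = 0.139) with all libraries and 2.09 ± 0.17, past the threshold, against WT1 alone. Aldh1l2 (gene 216188), the mitochondrial folate enzyme, had 3.34, 5.72 and 10.95 FPKM in the MSTN+/- samples, 30.90 FPKM in WT1 and 0.95 FPKM in both WT2 and WT3, so the MSTN+/- samples lay between (0.40 ± 0.76, limma adjusted p = 0.688).

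Of the 9 remaining aldehyde dehydrogenases, 8 were tested, 1 was higher, 2 were lower and 5 did not pass. Aldh2 (gene 11669), the mitochondrial enzyme that clears acetaldehyde, had 26.40, 34.02 and 38.19 FPKM as lowest, median and highest MSTN+/- values and 12.74, 19.55 and 23.34 FPKM in the wild-type samples. All 7 values lay above the 3 (0.86 ± 0.18, SE, limma adjusted p = 0.00351), by 0.56 with library weights and by 1.33 against WT1 alone. Aldh7a1 (gene 110695), an enzyme of lysine breakdown, was lower in all 7, at 18.82 to 22.35 FPKM with a median of 20.03 FPKM, against 23.31, 37.73 and 45.98 FPKM (-0.73 ± 0.17, limma adjusted p = 0.00668). Aldh4a1 (gene 212647), an enzyme of proline breakdown, had 7.75 to 12.45 FPKM, with a median of 9.34 FPKM, against 11.14, 20.52 and 16.55 FPKM, and WT1 lay inside the MSTN+/- range (-0.61 ± 0.19, limma adjusted p = 0.0235). Both calls were lost against WT1 alone (-0.19 and -0.16), and that of Aldh4a1 also without WT2 (-0.43) or WT3 (-0.57).

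Several of the genes that did not pass had 1 wild-type sample far from the rest. Aldh18a1 (gene 56454), which makes the precursor of proline, was at 70.57 FPKM in WT1, and at 33.36 and 40.30 FPKM in WT2 and WT3, beside 32.95 to 42.04 FPKM in the MSTN+/- samples, and passed as lower against WT1 alone (-0.93). Aldh6a1, an enzyme of valine breakdown, was at 2.70 FPKM in WT1, at 8.18 and 8.01 FPKM in WT2 and WT3, and at 8.58 to 9.79 FPKM in the MSTN+/- samples. Its groups did not overlap, yet the difference of 0.62 ± 0.24 missed the threshold (limma adjusted p = 0.0618), and it passed without WT1 (0.19), WT2 (0.84) or WT3 (0.83) and against WT1 alone (1.48). Aldh9a1, which oxidises aminobutyraldehyde, was at 11.89, 34.56 and 42.06 FPKM in WT1, WT2 and WT3 and at 21.71 to 24.65 FPKM in the MSTN+/- samples. Aldh16a1 was at 9.32, 19.06 and 19.85 FPKM against 9.90 to 13.19 FPKM, and passed as lower without WT1 (-0.70), with library weights (-0.67) and with median-of-ratios (-0.57) or quantile (-0.52) scaling. Aldh5a1, the succinic semialdehyde dehydrogenase, stayed at 0.89 to 2.31 FPKM in all libraries and passed as higher against WT1 alone (0.69). Aldh8a1 stayed at or below 0.09 FPKM.

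Summed over the 20 aldehyde dehydrogenases, the level was 389 to 566 FPKM in the MSTN+/- samples and 194, 198 and 218 FPKM in WT1, WT2 and WT3. Aldh3a1 made up 49.9% to 63.8% of the sum in the MSTN+/- samples and at most 0.162% in the wild-type ones. With Aldh3a1 taken out, the sum was 194 to 215 FPKM in the MSTN+/- samples and 194, 197 and 217 FPKM in the wild-type ones, so that the ranges overlapped. The leading enzyme changed with the library: Aldh3a1 in each of the 7 MSTN+/- samples, Aldh18a1 in WT1 (36.3% of the sum), and Aldh7a1 in WT2 and WT3 (19.1% and 21.1%).

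**Figure D3:**
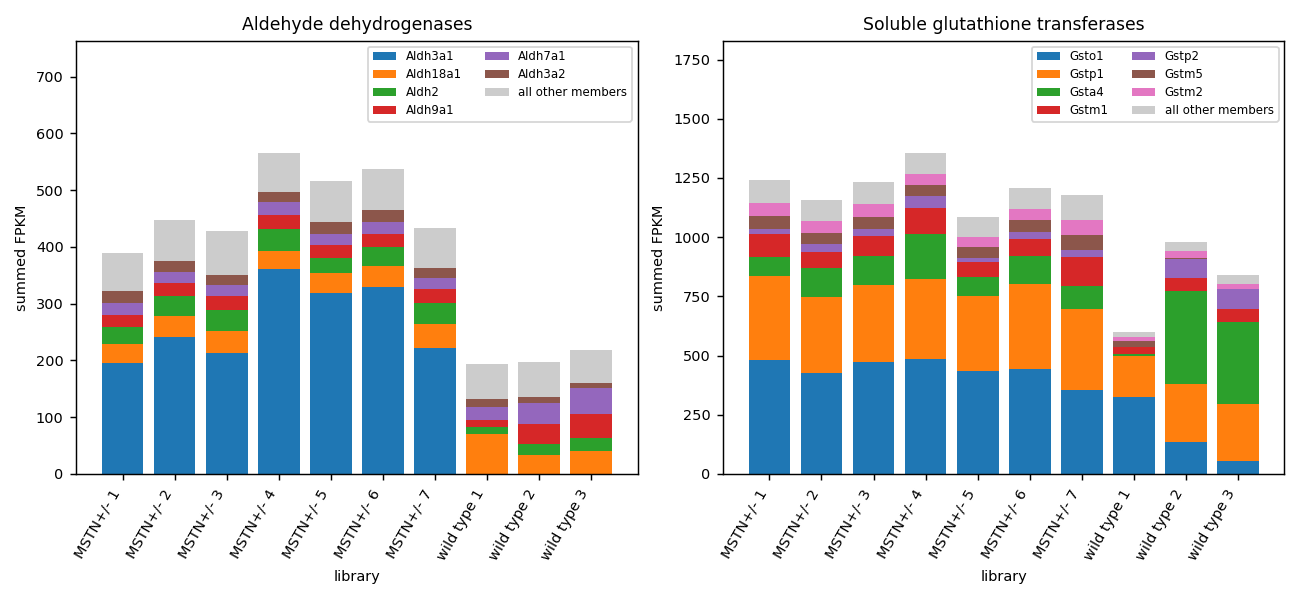
Summed FPKM of the 20 aldehyde dehydrogenases (left) and the 21 soluble glutathione S-transferases (right) in each library, as stacked bars from 0 coloured by gene. Aldh3a1 is a wide band of each MSTN+/- bar and is missing from the wild-type bars, and Gsta4 is the widest band in WT2 and WT3, where Gsto1 is narrow.

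Of the 6 flavin-containing monooxygenases, 3 were tested. All 3 were higher, but they had passed the filter only through the MSTN+/- samples, so that their direction was fixed by it. Fmo1 (gene 14261), a broad-range enzyme of mouse liver and kidney, had 50, 53.97 and 69.71 FPKM as lowest, median and highest MSTN+/- values, and 0.08, 0.04 and 0.04 FPKM in the wild-type samples. The difference of 5.80 ± 0.12 (SE, limma adjusted p = 1.29e-09) was 5.82 without WT1 and 5.76 against it alone. Fmo2 (gene 55990), the form known from lung, behaved otherwise within the MSTN+/- samples. It was at 3.46, 7.04, 14.16, 11.37, 0.69, 2.14 and 8.47 FPKM in MSTN+/- replicates 1 to 7, a 20.5-fold span, against 0.05, 0.03 and 0.03 FPKM in WT1, WT2 and WT3. Its difference of 2.57 ± 0.61 (limma adjusted p = 0.00743) was 5.15 with a pseudocount of 0.1, and its call was lost with library weights (2.53) and against WT1 alone (2.55). Fmo6 (gene 226565) spanned 15.3-fold, at 0.11 to 1.68 FPKM in the MSTN+/- samples and 0.05, 0.05 and 0 FPKM in the wild-type ones (0.83 ± 0.26, limma adjusted p = 0.0271). Its call was lost with library weights (0.95), without WT2 (0.84) or WT3 (0.81) and against WT1 alone (0.81), its value was 1.36 with TPM rescaling and 2.68 with a pseudocount of 0.1, and it was not tested without MSTN+/- replicate 2, 3 or 4. Neither Fmo2 nor Fmo6 was tested under a minimum mean of 5 FPKM. MSTN+/- replicate 5 was the lowest of the 7 for all of Fmo1, Fmo2 and Fmo6. Of the forms not tested, Fmo5 was at 0.49 to 1.02 FPKM in the MSTN+/- samples and 0.14, 0.31 and 0.14 FPKM in the wild-type ones. Fmo4 was listed at 0 in all 3 wild-type samples and reached 0.28 FPKM in the MSTN+/- ones. Fmo1 made up 76.3% to 97.5% of the family sum in the MSTN+/- samples.

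Soluble glutathione S-transferases are named by class. Both omega enzymes and the single zeta and kappa enzymes were higher, of which Gsto2 had passed the filter only through the MSTN+/- samples. Gsto1 (gene 14873), a dehydroascorbate reductase and thiol transferase, was the most abundant transferase of the MSTN+/- samples, at 353.37, 444.26 and 485.77 FPKM as lowest, median and highest values. It stood at 322.88 FPKM in WT1, close below that range, and at 135.44 and 55.14 FPKM in WT2 and WT3. The difference was 1.70 ± 0.40 (SE, limma adjusted p = 0.00699), and it was 0.45 against WT1 alone, 1.07 without WT3 and 2.78 with library weights. Gstz1 (gene 14874), which isomerises maleylacetoacetate in tyrosine breakdown, was uniform in both groups, at 18.55 to 23.13 FPKM with a median of 21.42 FPKM against 11.64, 10.86 and 11.59 FPKM (0.83 ± 0.09, limma adjusted p = 9.45e-05). Gstk1 (gene 76263), the mitochondrial and peroxisomal form, had 8.50 to 11.93 FPKM, with a median of 10.05 FPKM, against 1.31, 1.88 and 2.96 FPKM (1.88 ± 0.18, limma adjusted p = 2.71e-05). Gsto2 was at 0.80 to 2.15 FPKM against 0.64, 0.62 and 0.24 FPKM (0.71 ± 0.21, limma adjusted p = 0.0209). Its call was lost with quantile normalization (0.32), library weights (0.97), without WT3 (0.57) and against WT1 alone (0.57), it was 1.40 with a pseudocount of 0.1, and it was not tested under a minimum mean of 5 FPKM. Gstcd (gene 67553), named for a transferase-like domain, was lower in all 7, at 5.55 to 7.23 FPKM with a median of 6.63 FPKM, against 8.46, 9.41 and 12.29 FPKM (-0.55 ± 0.12, limma adjusted p = 0.00567). Against WT1 alone its difference of -0.34 missed the threshold.

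The pi class has near-identical mouse copies, Gstp1 and Gstp2, between which reads may be split. Gstp1 (gene 14870) was among the most even of these genes, at 314.56, 335.94 and 357.28 FPKM as lowest, median and highest MSTN+/- values and 173.96, 243.82 and 241.28 FPKM in WT1, WT2 and WT3. It rose by 0.63 ± 0.12 (SE, limma adjusted p = 0.00200), by 0.41 after median-of-ratios scaling and by 0.94 against WT1 alone. Gstp2 (gene 14869) had 16.65, 29.10 and 50.72 FPKM in the MSTN+/- samples, 1.12 FPKM in WT1, and 80.54 and 82.77 FPKM in WT2 and WT3. The MSTN+/- samples thus lay between the wild-type samples (0.30 ± 0.97, limma adjusted p = 0.814). Gstp2 made up 0.640% of the pair's summed FPKM in WT1, 5.03% to 13.1% in the MSTN+/- samples, and 24.8% and 25.5% in WT2 and WT3.

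Of 7 mu class enzymes, which conjugate epoxides and quinones and are close copies of one another, 5 were higher and 2 did not pass. Gstm7, 1 of the 5, had passed the filter only through the MSTN+/- samples. Gstm1 (gene 14862), the most abundant, had 63.09, 86.52 and 118.97 FPKM as lowest, median and highest MSTN+/- values and 26.68, 54.73 and 55.70 FPKM in the wild-type samples. Its difference of 0.97 ± 0.26 (SE, limma adjusted p = 0.0143) was 0.63 without WT1 and 1.65 against it alone, and the call was lost with library weights (0.55). Gstm2 (gene 14863) had 40.33 to 62.96 FPKM, with a median of 47.32 FPKM, against 17.09, 27.88 and 19.51 FPKM (1.19 ± 0.17, limma adjusted p = 3.44e-04). Gstm5 (gene 14866) was at 45.84 to 60.93 FPKM, with a median of 49.84 FPKM, in the MSTN+/- samples, at 24.18 FPKM in WT1, and at 3.61 and 3.36 FPKM in WT2 and WT3 (2.69 ± 0.45, limma adjusted p = 0.00109). Against WT1 alone it was 1.03. As a share of the summed mu class, Gstm5 was at 21.1% to 28.5% in the MSTN+/- samples, 33.9% in WT1 and 3.50% and 3.65% in WT2 and WT3. Gstm4 and Gstm7 were lower in level and also rose. Gstm4 was at 7.46 to 11.07 FPKM, with a median of 8.44 FPKM, against 2.52, 6.24 and 5.22 FPKM (0.84 ± 0.21, limma adjusted p = 0.00859), and missed the threshold with quantile normalization (0.48). Its difference was 0.53 without WT1 and 1.46 against it alone. Gstm7 was at 3.51 to 5.26 FPKM against 0.83, 0.98 and 0.98 FPKM (1.40 ± 0.13, limma adjusted p = 2.47e-05), and at 0.93 on the log2 scale with quantile normalization. The 2 that did not pass were highest in WT2 and WT3: Gstm6 at 3.48 and 3.03 FPKM, and Gstm3 at 6.28 and 4.25 FPKM, with 0.08 and 0 FPKM in WT1 and 0.89 to 2.5 and 0 to 1.3 FPKM in the MSTN+/- samples. Gstm3 passed as lower without WT1 (-2.05) and with library weights (-1.77).

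Alpha class enzymes reduce lipid peroxides and clear hydroxynonenal. Gsta4 (gene 14860), the form most selective for hydroxynonenal, had 81.94, 118.15 and 190.79 FPKM as lowest, median and highest MSTN+/- values, 11.33 FPKM in WT1 and 393.90 and 344.23 FPKM in WT2 and WT3. No MSTN+/- sample came near either kind of wild-type sample, and the difference with all of them was -0.06 ± 0.90 (SE, limma adjusted p = 0.958). Gsta3 (gene 14859) was higher, at 2.68 to 5.67 FPKM with a median of 4.13 FPKM, against 0.14, 0.59 and 0.88 FPKM (1.74 ± 0.21, limma adjusted p = 1.31e-04), or 2.92 with a pseudocount of 0.1. Gsta1 was listed at 0 in the 3 wild-type samples and in MSTN+/- replicates 3, 5 and 7, and reached 2.55 FPKM in MSTN+/- replicate 1, with no difference past the threshold (limma adjusted p = 0.186). Both Gsta1 and Gsta3 had passed the filter only through the MSTN+/- samples. Gsta2 stayed at or below 0.60 FPKM. Of the theta class, which dehalogenates small molecules, the 3 genes tested were higher. Gstt3 (gene 103140) was the most even, at 18.16 to 22.65 FPKM with a median of 19.60 FPKM, against 2.90, 3.06 and 2.66 FPKM (2.43 ± 0.10, limma adjusted p = 7.25e-08). Gstt1 (gene 14871) had 8.56 to 24.15 FPKM, with a median of 12.25 FPKM, against 1.52, 1.65 and 0.97 FPKM (2.60 ± 0.25, limma adjusted p = 3.41e-05). Gstt2 (gene 14872) had 6.84 to 10.08 FPKM, with a median of 7.41 FPKM, against 0.20, 5.32 and 5.58 FPKM. Its call (1.24 ± 0.44, limma adjusted p = 0.0438) was lost without any 1 of the 7 MSTN+/- samples (1.18 to 1.26) and under the 3 other scalings (0.87 to 1.5), a pseudocount of 0.1 (1.89), no low-value filter (1.24) and library weights (0.47). It was 0.43 without WT1 and 2.86 against it alone. Gstt4 was listed at 0 in 9 libraries.

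Summed over the 21 soluble transferases, the level was 1085 to 1355 FPKM in the MSTN+/- samples and 599, 981 and 840 FPKM in WT1, WT2 and WT3. Gsto1 led in each MSTN+/- sample (29.95% to 40.1% of the sum) and in WT1 (53.9%), and Gsta4 led in WT2 and WT3 (40.2% and 41.0%). Gstp1 held a similar share in all, at 24.8% to 29.6% in the MSTN+/- samples and 29.0%, 24.9% and 28.7% in the wild-type ones.

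Microsomal glutathione S-transferases are membrane enzymes of a separate family that conjugate lipophilic compounds and reduce lipid peroxides, and 3 of 3 were higher, of which Mgst2 had passed the filter only through the MSTN+/- samples. Mgst1 (gene 56615) had 158.17, 192.65 and 245.63 FPKM as lowest, median and highest MSTN+/- values and 14.86, 8.05 and 4.21 FPKM in the wild-type samples, a difference of 4.42 ± 0.27 (SE, limma adjusted p = 1.504e-06). Mgst3 (gene 66447) had 43.76 to 64.63 FPKM, with a median of 57.90 FPKM, against 17.82, 11.53 and 14.56 FPKM (1.88 ± 0.15, limma adjusted p = 7.57e-06). Mgst2 (gene 211666), which can also make leukotriene C4, was low, at 1.02 to 2.23 FPKM against 0.31, 0.85 and 0.51 FPKM (0.78 ± 0.19, limma adjusted p = 0.00822). The Mgst2 call was lost with quantile normalization (0.37) and library weights (0.78), its difference was 1.48 with a pseudocount of 0.1, and it was not tested under a minimum mean of 5 FPKM. Mgst1 was the leading form in every MSTN+/- sample and Mgst3 in every wild-type sample. The family sum was 214 to 305 FPKM in the MSTN+/- samples and 32.99, 20.43 and 19.28 FPKM in the wild-type ones.

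Set against WT1 alone, 35 of 53 detoxification genes tested were higher and 2 were lower (33.7% and 10.8% of all genes), with a median difference of 1.02. Set against WT2 and WT3, 34 of 54 were higher and 12 lower (42.2% and 31.9% of all genes), with a median of 0.71. In 5 genes the differences passed the threshold in opposite directions. Gsta4, Gstp2, Gstm6 and Aldh9a1 were higher than in WT1, by 3.21 ± 0.37, 3.83 ± 0.42, 1.31 ± 0.28 and 0.93 ± 0.10 (SE, log2 scale), and lower than in WT2 and WT3, by -1.70 ± 0.27, -1.46 ± 0.30, -0.66 ± 0.19 and -0.67 ± 0.09. Aldh1l2 was the reverse, at -2.29 ± 0.42 and 1.74 ± 0.30. How many of all genes had such opposite differences was not computed, so the pattern is not shown to be particular to these 5. For these genes the MSTN+/- samples lay between WT1 and the other wild-type samples. They also did for the summed fibroblast and pluripotency markers, and for 4 of 8 and 6 of 8 of the single markers, while Pou5f1, Dcn and Lum were above every wild-type sample in all 7. Among the 7 MSTN+/- samples, replicate 4 had the highest sum of pluripotency markers, at 1529 FPKM, and the lowest of fibroblast markers, at 2730 FPKM. It was the highest of the 7 for Gsta4, Gstp2 and Aldh9a1, at 190.79, 50.72 and 24.65 FPKM. It was not for Gstm6, at 1.65 FPKM, which was highest in replicate 1 at 2.5 FPKM. Aldh1l2, whose order is the reverse, was highest at 10.95 FPKM in replicate 7, which had the highest fibroblast sum, 5716 FPKM. It was lowest at 3.34 FPKM in replicate 1, whose fibroblast sum of 4894 FPKM came next. Replicates 1 and 5 had the lowest sums of pluripotency markers, at 903 and 924 FPKM, and the lowest values of Gsta4, Gstp2 and Aldh9a1. What the markers contribute to these levels was not tested, and the choice to set them side by side was made after the values were seen. By contrast Aldh3a1, Aldh1a1, Fmo1, Fmo2, Gstt1, Gstt3, Mgst1 and Ephx1 stood above every wild-type sample of either kind. Their differences were at least 2.11 on the log2 scale in both comparisons. Of these, Aldh3a1, Fmo1 and Fmo2 had passed the filter only through the MSTN+/- samples, so that their direction was fixed by it.

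**Figure D4:**
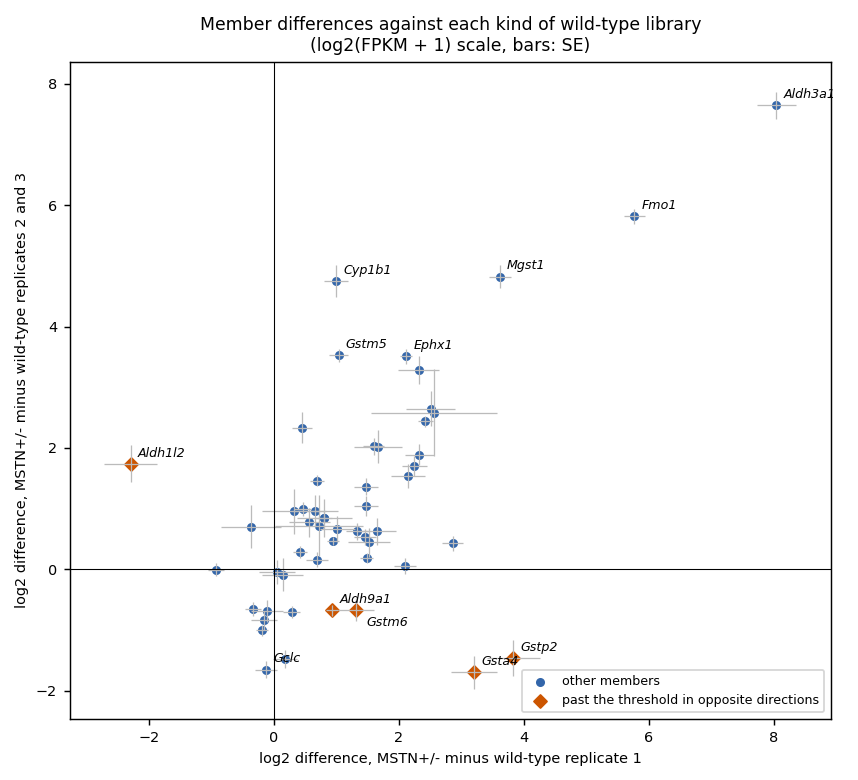
Difference of each detoxification gene on the log2(FPKM + 1) scale between the 7 MSTN+/- samples and WT1 alone (horizontal) and WT2 and WT3 (vertical), with SE bars. Diamonds mark the 5 genes past the threshold in opposite directions, and Aldh3a1, Fmo1 and Mgst1 lie far up the diagonal.

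**Figure D5:**
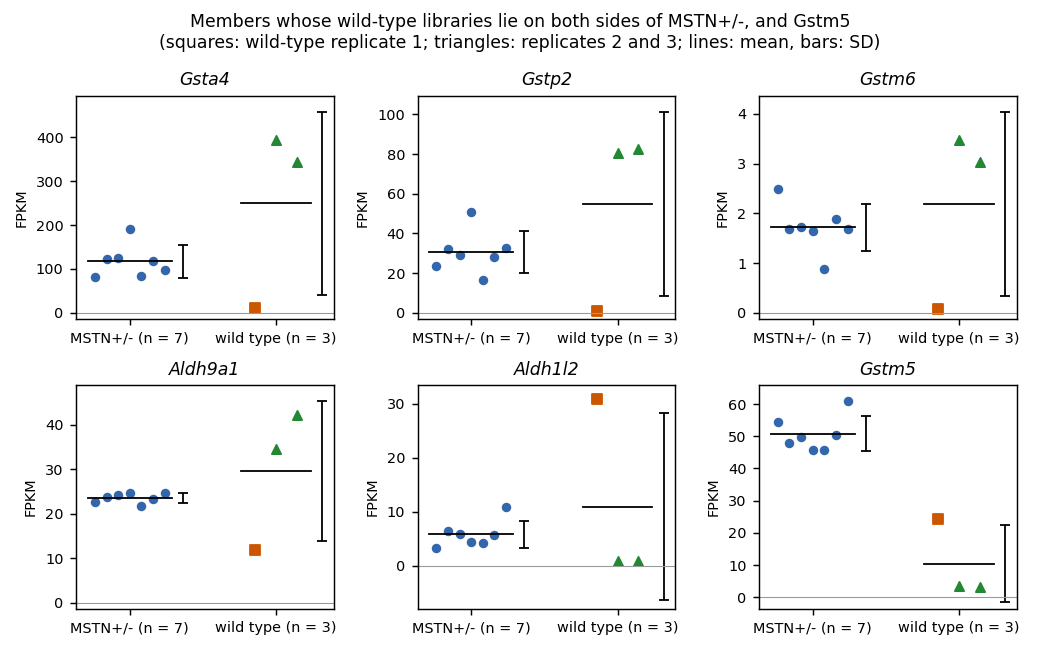
FPKM per library of the 5 genes with opposite differences and of Gstm5, on linear axes that include 0, with the mean as a line and the SD as a bar. For Gsta4, Gstp2, Gstm6 and Aldh9a1 the square (WT1) is below and the triangles (WT2 and WT3) are above all 7 MSTN+/- points, and Aldh1l2 shows the reverse order.

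Within the MSTN+/- samples most detoxification genes varied little. The highest of the 7 values was under 2-fold of the lowest for 34 of the 54 genes tested, between 2-fold and 3-fold for 10 and over 3-fold for 8, while 2 had a library listed at 0. The 8 wide ones were Ahr, Aldh1a2, Aldh1a3, Aldh1a7, Aldh1l2, Fmo2, Fmo6 and Gstp2. MSTN+/- replicate 5 had the highest Ahr (16.59 FPKM), Nqo1 (29.31 FPKM), Aldh1a1 (13.40 FPKM), Ephx1 (321.54 FPKM) and Mgst1 (245.63 FPKM) of the 7. For Ephx1 replicate 6 was nearly equal, at 321.2 FPKM. Replicate 5 was also the only library with Cyp1a1 above 0, but at only 0.04 FPKM. Cyp1b1 was instead highest in replicate 7 (86.43 FPKM) and Aldh3a1 in replicate 4 (360.66 FPKM). The grouping of genes by replicate 5 was put together after their values were seen, and no test was made of it.

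Pathway genes outside the symbol rule were drawn up in 5 lists of 76 genes, of which 75 had a row and 66 were tested. Of these 29 were higher, 12 were lower and 25 did not pass, with a median difference of 0.25. That is 43.9% and 18.2% of those tested, beside 31.8% and 12.8% of all genes, whose median was 0.17. Of the 66, 5 had passed the filter only through the MSTN+/- samples, and 4 of these were called higher. Of 27 NRF2 targets and thiol enzymes, 6 were higher and 9 lower, with a median of -0.44. Against WT1 alone the median was 0.11, beside 0.26 for all genes. Without WT1 6 were higher and 17 lower, in a comparison where 42.2% of all genes were higher and 31.9% lower. Txnrd1, the cytosolic thioredoxin reductase gene, had 54.2 ± 6.88 FPKM (SD, n = 7) in the MSTN+/- samples and 101.2, 181.55 and 203.61 FPKM in the wild-type ones (-1.51 ± 0.21, SE, limma adjusted p = 3.08e-04), or -0.90 against WT1 alone. Bach1, a repressor of NRF2 targets, had 6.89 ± 0.548 FPKM against 12.3 ± 0.509 FPKM (SD, n = 3), a difference of -0.75 ± 0.10 (limma adjusted p = 2.26e-04). G6pdx, which supplies NADPH for glutathione reduction, had 67.9 ± 8.02 FPKM against 40.7 ± 3.33 FPKM (0.72 ± 0.12, limma adjusted p = 9.71e-04). Sqstm1, an autophagy receptor that binds KEAP1, had 245 ± 13.8 FPKM against 153 ± 48.6 FPKM (0.72 ± 0.16, limma adjusted p = 0.00530), was at 1.09 with library weights, and missed the threshold against WT1 alone (0.25).

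In the AHR pathway list 1 of 5 genes tested was higher and 2 were lower. The cochaperone genes Ptges3 and Hsp90ab1 were lower by -0.92 ± 0.30 and -0.65 ± 0.23 (SE, limma adjusted p = 0.0295 and 0.0429). Both calls were lost without WT2 (-0.69 and -0.43) or WT3 (-0.64 and -0.49) and, with the sign turned, against WT1 alone (0.12 and 0.11), and the values were -1.45 and -1.02 without WT1. That of Ptges3 was also lost without MSTN+/- replicate 5 or 7 (-0.91 and -0.87), and was -1.39 with library weights. That of Hsp90ab1 was lost without any 1 MSTN+/- sample (-0.68 to -0.59) and with no low-value filter (-0.65). Tiparp, a transcriptional target of AHR, had 18.6 ± 1.71 FPKM (SD, n = 7) against 6.96, 19.75 and 21.39 FPKM and did not pass (limma adjusted p = 0.327), though it was higher by 1.297 against WT1 alone.

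Of 11 tested genes that handle or respond to retinoic acid, 7 were higher and none (0) lower, with a median of 1.79. That is 63.6% higher, beside 31.8% higher and 12.8% lower over all genes tested. Of the 11, 2 had passed the filter only through the MSTN+/- samples. Against WT1 alone the median difference was 0.998, beside 0.26 for all genes. There Crabp1, Rara and Rarb had negative differences (-0.26, -0.13 and -1.32), and those of the others were positive. Dhrs3, a retinal reductase gene, had 43.7 ± 14.0 FPKM (SD, n = 7) against 9.89, 4.59 and 4.32 FPKM (2.64 ± 0.31, SE, limma adjusted p = 1.10e-04). The receptor genes Rara and Rarg did not pass, at 19.0 ± 2.49 and 59.98 ± 3.63 FPKM against 19.9 ± 1.17 and 63.6 ± 9.02 FPKM (limma adjusted p = 0.659 and 0.571), though Rarg passed as lower with median-of-ratios scaling (-0.29). Of 6 glutathione peroxidases, 3 were higher and none (0) lower, with a median of 0.92. The secreted form Gpx3 had 73.0 ± 28.9 FPKM against 11.2 ± 3.09 FPKM (2.53 ± 0.33, limma adjusted p = 2.23e-04). Gpx7, of the endoplasmic reticulum, had 25.3 ± 4.62 FPKM against 20.57, 6.28 and 4.90 FPKM (1.41 ± 0.34, limma adjusted p = 0.00817), and missed the threshold against WT1 alone (0.27). Gpx2, an epithelial form, was listed at 0 in WT1 and was at 30.77 and 55.15 FPKM in WT2 and WT3, with 1.22 to 2.89 FPKM in the MSTN+/- samples (limma adjusted p = 0.132). It passed as lower without WT1 (-3.72) and with library weights (-3.81), and as higher against that replicate alone (1.68).

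Among other conjugating and oxidising enzymes 12 of 17 tested were higher and 1 lower, with a median of 0.88. That is 70.6% and 5.88%, beside 31.8% and 12.8% of all genes. The 12 include Aox1, Cyp2f2 and Ces1d, which had passed the filter only through the MSTN+/- samples. Against WT1 alone the median was 0.73, beside 0.26 for all genes. Aox1, aldehyde oxidase, had 7.38 ± 0.853 FPKM (SD, n = 7) against 0.577 ± 0.160 FPKM (SD, n = 3), a difference of 2.41 ± 0.12 (SE, limma adjusted p = 4.27e-07). Ugt1a6a, a glucuronosyltransferase gene that shares exons with its neighbours of the Ugt1a locus, had 14.8 ± 1.59 FPKM against 1.68 ± 1.198 FPKM (2.65 ± 0.22, limma adjusted p = 1.28e-05). Cyp2e1, the ethanol-oxidising P450 gene, was the lower one, at 0 to 1.37 FPKM against 1.75, 4.45 and 9.41 FPKM (-1.83 ± 0.38, limma adjusted p = 0.00356). Its difference was -3.05 with a pseudocount of 0.1 and -2.78 with library weights, and it was not tested against WT1 alone or under a minimum mean of 5 FPKM. Ephx2, the soluble epoxide hydrolase gene, was at 0.89, 15.76 and 20.78 FPKM in WT1, WT2 and WT3 and at 1.33 to 3.92 FPKM in the MSTN+/- samples. It did not pass (limma adjusted p = 0.0927), except as lower without WT1 (-2.53), with library weights (-2.55) and with quantile normalization (-1.72).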

How the data were processed

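The series measured RNA by Illumina sequencing of Trizol extracts, per the labels' protocols. Per the file headers, the deposited values are FPKM as the authors computed them, with 2 decimals, 1 for each gene in each library. Which aligner, counter or build made them is not given in the sources used here. Groups came from the genotype label, and replicate numbers only name libraries. No per-library column was left unused (0). FPKM are not counts, so total depth is unknown and no counting interval is given. Steps of single fragments in low genes gave relative depths between 1 and 1.197 (MSTN+/- replicate 1 set to 1), from a search near equal depth only. FPKM totals ran from 402716 to 464418.

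The model was limma 3.58.1, run in R 4.3.3, with an intensity trend on log2(FPKM + 1). It took the 14047 genes that reached 1 FPKM in 3 or more libraries, with 8 residual degrees of freedom and Benjamini-Hochberg adjustment over all of them (threshold 0.05). Differences are MSTN+/- minus wild type and are understated for low genes. Members, lists and tests were chosen with earlier results of these data known. Members with a mean of at least 5 FPKM in a group, the 10 single genes, and the 2 list genes with the smallest p in each direction were to be named, and the other members are given in brief. A few genes that this choice includes are not reported here. Marker lists of macrophages, epithelial and endothelial cells summed to 5.97 to 15.7, 64.3 to 146 and 18.95 to 28.6 FPKM over the 7 MSTN+/- libraries, and to 8.28, 9.88 and 8.71, to 5.04, 220 and 370, and to 2.97, 28.8 and 25.7 FPKM in wild-type replicates 1, 2 and 3. Data were also simulated for the comparison of all 10 libraries, and 13738 genes passed the filter. Of 50 genes changed 2-fold 64% were recovered, and of 50 changed 4-fold 90%. Of 185 calls 6.49% were false. The simulation gave all libraries the same independent noise and changed few genes, none of them low. In the real data the wild-type libraries varied more and far more genes were called, so these rates do not carry over to them. The scaling was changed to median-of-ratios, TPM or quantile, the pseudocount to 0.1, and the filter to none or to a minimum mean of 5 FPKM. Robust empirical Bayes, weighting of libraries, leaving out each library, and using only wild-type replicate 1 as reference were also run. Figures were drawn with matplotlib 3.10.9.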

Additional observations from a re-analysis of the deposited data

Results flagged for a closer look

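In 6 of the 54 genes tested, 1 of the 7 MSTN+/- libraries lay far from the other 6 by Dixon's criterion for a single extreme value, which chance meets in about 1 of 20 groups. Ahr, the aryl hydrocarbon receptor gene, was at 16.59 FPKM in MSTN+/- replicate 5, with the next value at 7.29 FPKM. Gsta4, the hydroxynonenal transferase gene, was at 190.79 FPKM in replicate 4, with the next at 124.05 FPKM. Aldh1a2 was at 4.74 FPKM in replicate 3, with the next at 2.04 FPKM. Replicate 7 was the extreme library for the other 3 genes. It had Aldh1l2 at 10.95 FPKM beside 6.36 FPKM, Gstt1 at 24.15 FPKM beside 14.86 FPKM, and Gstt2 at 10.08 FPKM beside 7.79 FPKM. The wild-type group has too few libraries for the criterion.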

How the results depend on the processing

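No paired analysis was possible because the replicate numbers only follow the order of the samples. Over the alternatives that keep more than 1 wild-type library, 23 to 34 detoxification genes were higher. The 23 were of 39 tested (mean of at least 5 FPKM), and the 34 were of 54 (without wild-type replicate 1). Where all 54 were tested, the lowest count was 25, with library weights. The 5 lower ones became 10 with library weights, 2 against wild-type replicate 1 alone, and 2 to 12 when 1 library was left out: 12 without wild-type replicate 1, and 2 without replicate 2 or 3. For the listed pathway genes, the 12 lower became 18 with library weights, 6 against replicate 1 alone and 8 to 22 with 1 library left out, while 22 to 30 were then higher. Against wild-type replicate 1 alone the sign turned in 9 members and 19 list genes, 6 of the latter called with all libraries. Among genes named here and past the threshold in either comparison, these were Gclm (0.17), Aldh1l2 (-2.29), Aldh9a1 (0.93), Gsta4 (3.21), Gstm6 (1.31), Ptges3 (0.12), Hsp90ab1 (0.11) and Gpx2 (1.68). Gstp2 turned without that library (-1.46, with 1.19 as the highest value with 1 library left out). The cause was not tested. Of the 37 members called, 22 passed in each alternative that tested them, 15 missed or reversed in at least 1, and 9 were left untested by at least 1. Library weights gave wild-type replicates 1, 2 and 3 weights of 0.04, 0.10 and 0.90. That setting thus rests mostly on replicate 3 for the wild-type level, and is not independent of leaving out replicate 1. Depth is unknown, so genes near 1 FPKM carry an error that could not be given.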
